A study of Mus musculus with 12 samples.

Results

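The genes described here are 10 markers of intraepithelial and cytotoxic T cells, namely Cd3e, Cd3g, Cd3d, Cd8a, Cd8b1, Trdc, Itgae, Cd160, Gzma and Gzmb. They were taken by symbol as a given list. All 10 were found among the 47643 genes of the count table, and all 10 passed the filter on low counts, which left 17602 genes to test. RNA of mouse intestine had been sequenced in 12 libraries that cross genotype with diet. The groups were PparaΔIE mice on a 60% high-fat diet (KO HFD), Pparafl/fl mice on the same diet (WT HFD), PparaΔIE mice on chow (KO chow) and Pparafl/fl mice on chow (WT chow), with 3 libraries each. All mice were male, of the C57BL/6 strain and aged 7 to 8 weeks, and each diet was given over 10 days. Pparafl/fl stands for alleles flanked by recombinase sites, and PparaΔIE for a deletion restricted to the gut epithelium. The gene product, PPARα, is a nuclear receptor that senses fatty acids. The recombinase driver, the stretch of intestine taken and whether each library came from its own mouse are not given in the labels. A p-value here therefore covers the spread between these 12 libraries, part of which may be technical.

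Intraepithelial lymphocytes are T cells that lie between the epithelial cells of the gut, and in mice most of them in the small intestine carry CD8. Some bear an αβ T cell receptor and others a γδ receptor, and both signal through the CD3 chains. They bind epithelial E-cadherin through the integrin chain encoded by Itgae, and many store granzymes, serine proteases that are released from granules onto target cells. The deleted receptor of this study belongs to the epithelial cells next to them, so these genes report on neighbours of the targeted cells. In bulk tissue, a lower level from fewer such cells and from less RNA per cell cannot be told apart.

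The promoters of Gzmb, Gzma and Cd3e are printed because the first 2 genes carry the diet difference in this set, while Cd3e encodes the receptor chain they were compared with. Each line holds the 250 bases before the gene's start in RefSeq on GRCm38.p6, from 5′ to 3′ on the gene's own strand, and such a window was at hand for 7 of the 10 genes. Capitals mark matches, on either strand, to the RUNX letters TGTGGT, the AP-1 letters TGANTCA and, in Cd3e, the letters TGACGT of a CRE core. No match overlapped another.
Gzmb, chr14:56262335-56262584, minus strand: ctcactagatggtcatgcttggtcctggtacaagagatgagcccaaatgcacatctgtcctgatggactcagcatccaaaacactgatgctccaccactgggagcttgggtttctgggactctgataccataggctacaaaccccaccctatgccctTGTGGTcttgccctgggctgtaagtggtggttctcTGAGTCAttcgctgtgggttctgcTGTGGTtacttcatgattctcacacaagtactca
Gzma, chr13:113100982-113101231, minus strand: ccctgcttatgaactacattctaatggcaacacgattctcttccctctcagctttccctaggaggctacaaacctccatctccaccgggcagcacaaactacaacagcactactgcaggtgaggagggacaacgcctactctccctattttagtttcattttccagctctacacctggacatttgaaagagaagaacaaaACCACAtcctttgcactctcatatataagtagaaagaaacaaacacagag
Cd3e, chr9:45009612-45009861, minus strand: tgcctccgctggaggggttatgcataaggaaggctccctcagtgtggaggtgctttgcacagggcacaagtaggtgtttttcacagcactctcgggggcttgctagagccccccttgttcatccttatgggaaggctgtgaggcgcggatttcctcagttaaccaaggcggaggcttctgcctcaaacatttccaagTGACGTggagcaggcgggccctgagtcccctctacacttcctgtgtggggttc
In Gzmb the RUNX letters lay 93 to 88 and 34 to 29 bases before the start and TGAGTCA lay 58 to 52 bases before it. In Gzma the RUNX letters were on the opposite strand, 50 to 45 bases before the start, and read ACCACA on the printed strand. Of 32851 mouse promoter windows of this length, 14% held the RUNX letters, 6.75% the AP-1 letters and 6.47% TGACGT. The T-box letters GGTGTGA, also searched, were in 3.33% of windows and, of these 7 genes, at Cd160 alone. Cd160 has 2 windows for 2 starts. The T-box letters and the RUNX letters on the gene's strand were in 1 of them, and the RUNX letters on the opposite strand were in the other. A DR1 element, the kind of site PPARα binds, was searched in its consensus form and was in 0.0335% of windows and in none of the 7. These are matches of letters only.

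Depth and library likeness bear on all results. Totals ran from 33621040 to 53959405 expected counts, so that 1 CPM, the level scaled to library size that is used below, stood for 33.6 to 54.0 counts. Ppara itself measured 11.1 to 17.3 CPM in KO HFD against 33.7 to 39.3 CPM in WT HFD, and 8.42 to 15.6 CPM in KO chow against 18.1 to 22 CPM in WT chow, so no KO library reached a WT library of its diet. The biological coefficient of variation was 0.0583 in WT chow and 0.14 to 0.151 in the other groups. KO chow 3 lay between the other libraries of its group for 58.3% of the genes tested, against 19.8% to 41.7% for the other libraries of the 4 groups. Lactase (Lct), an enzyme highest in the proximal gut, had 50.2 to 144 CPM in KO HFD and 76.2 to 256 CPM in WT HFD. It measured 0.453, 102 and 57.6 CPM in KO chow 1, 2 and 3, and 2.01 to 2.75 CPM in WT chow. Ileal genes were present in all libraries, with Fabp6 at 3069 to 4502 CPM over the 4 groups. Of the colon genes, Aqp8 did not exceed 0.0249 CPM. Car1 had 0.342 to 1.23 CPM in KO chow, 0.261 to 0.479 CPM in WT chow and at most 0.0611 CPM on HFD. It fell on HFD averaged over genotypes (log2 fold change -4.04, adjusted p = 0.00017). Slc26a3 averaged 147 CPM in KO HFD and in WT HFD, 135 CPM in KO chow and 119 CPM in WT chow, and rose (0.21, adjusted p = 0.0084).

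High-fat feeding went with lower levels of both granzyme genes in both genotypes, and none of the other 8 genes passed the test in any comparison. Of the 10 genes, 2 fell on HFD against chow in KO, where 8.2% of all tested genes were called and 4.76% called lower. The same 2 fell in WT, where 13.4% were called and 6.57% called lower, and the same 2 averaged over genotypes, where 26.2% were called and 13.3% called lower. Between genotypes 0 of 10 passed on HFD, where 0.29% of all genes were called, 0 of 10 on chow (0.125%) and 0 of 10 averaged over diets (1.49%). At an unadjusted p under 0.05 these numbers of the 10 genes were 1, 5 and 4. The share of all tested genes at that unadjusted threshold is not given here, so no excess over it can be read from them. By DESeq2, with adjusted p-values, 0, 0 and 1 of the 10 genes passed. In the same order, 288, 188 and 981 of all 17602 genes were called by DESeq2. For the genotype by diet interaction 0 of 10 passed, also at an unadjusted p under 0.05 and by DESeq2, and 0.00568% of all genes were called. These are edgeR quasi-likelihood tests with p-values adjusted over all 17602 genes, and the comparisons share groups, so they are not independent of one another.

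**Figure D1:**
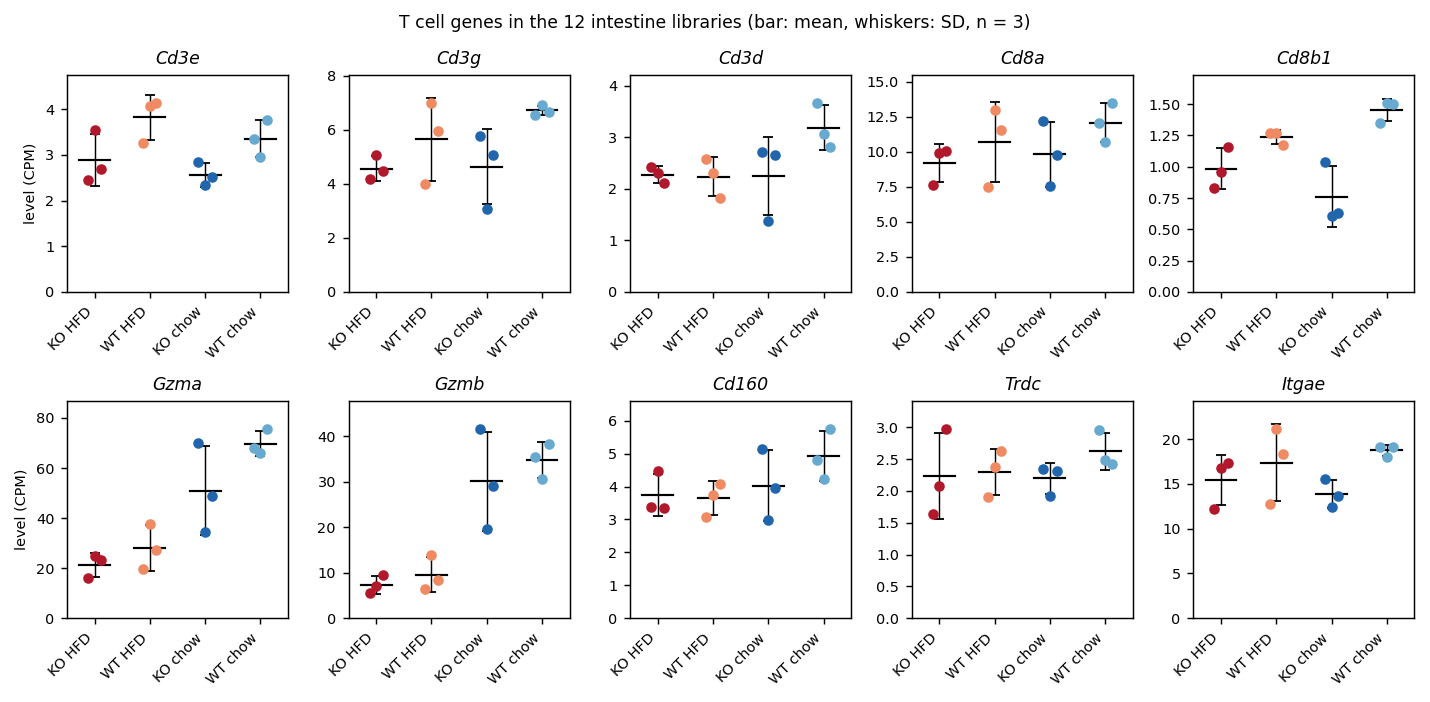
Level of each of the 10 genes (y axis, CPM, a separate linear scale per gene starting at 0) in the 12 libraries, by group (x axis: KO HFD, WT HFD, KO chow, WT chow). Points are libraries, bars are group means and whiskers are SDs. In Gzma and Gzmb the HFD points of each genotype lie below its chow points, and in the other 8 genes the 6 HFD and 6 chow points overlap.

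Levels differed widely among the 10 genes. Per kilobase of exon, the mean over the 12 libraries was 42.3 CPM for Gzma and 14.3 for Gzmb. It was 3.57 for Itgae, 2.88 for Cd8a, 1.65 for Cd3g, 1.55 for Cd160 and 1.37 for Cd3d, and 0.775 for Cd3e, 0.746 for Cd8b1 and 0.605 for Trdc. The granzymes were thus the most abundant transcripts of the set per length, and they also varied most, with the highest library 7.64 times the lowest for Gzmb and 4.76 times for Gzma, against 1.73 to 2.68 times for the other 8. Counts were lowest for Cd8b1, at 21 to 79 per library, and highest for Gzma, at 571 to 3990.

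The CD3 chains, which carry the signal of both αβ and γδ receptors, lie together on chromosome 9 (mm10). Cd3g (44969572 to 44980431) and Cd3d (44981786 to 44987339) are divergent genes whose starts are 1355 bases apart, and Cd3e (44998740 to 45009627) ends 11401 bases beyond Cd3d. Cd3e, the epsilon chain, measured 2.45, 3.54 and 2.69 CPM in KO HFD and 3.26, 4.07 and 4.14 CPM in WT HFD. On chow it measured 2.85, 2.34 and 2.51 CPM in KO and 3.35, 2.95 and 3.77 CPM in WT. The KO chow libraries were all below the WT chow libraries, whereas on HFD KO library 2 was above WT library 1. Averaged over diets, its log2 fold change between KO and WT was -0.40 (SE 0.12, adjusted p = 0.1), with a 95% interval from -0.66 to -0.13, and between HFD and chow it was 0.18 (SE 0.12, adjusted p = 0.32), with an interval from -0.09 to 0.44.

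Cd3g, the gamma chain, measured 4.17, 5.06 and 4.46 CPM in KO HFD and 3.98, 7.00 and 5.97 CPM in WT HFD. It measured 5.76, 3.08 and 5.07 CPM in KO chow and 6.57, 6.92 and 6.68 CPM in WT chow. The WT chow libraries were tight and above all KO chow libraries, and on HFD the genotypes overlapped. The KO to WT difference averaged over diets was -0.42 on the log2 scale (SE 0.15, adjusted p = 0.16). Cd3d, the delta chain, measured 2.42, 2.31 and 2.11 CPM in KO HFD, 2.58, 2.31 and 1.83 CPM in WT HFD, 2.72, 1.37 and 2.66 CPM in KO chow and 3.67, 3.07 and 2.82 CPM in WT chow. Every other library lay below the 3 of WT chow. The log2 fold change was -0.51 between HFD and chow in WT (SE 0.23, adjusted p = 0.16) and -0.51 between KO and WT on chow (SE 0.23, adjusted p = 0.37).

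Cd8a and Cd8b1 encode the chains of the CD8 coreceptor. Intraepithelial T cells carry CD8 as an αα or an αβ dimer, so Cd8a without Cd8b1 is a known feature of part of them. The genes are neighbours on chromosome 6, with Cd8b1 at 71322788 to 71337494 and Cd8a, 35933 bases further, at 71373427 to 71379173. Cd8a measured 7.64, 9.90 and 10.1 CPM in KO HFD, 7.53, 13 and 11.6 CPM in WT HFD, 12.2, 7.56 and 9.78 CPM in KO chow and 12.1, 10.7 and 13.5 CPM in WT chow. All groups overlapped in Cd8a except KO HFD and WT chow, and no difference passed (averaged over diets, KO to WT -0.26, SE 0.15, adjusted p = 0.36).

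Cd8b1 had the largest genotype difference of the set on chow and averaged over diets, though not on HFD, where Cd3e and both granzymes differed more. It measured 0.834, 0.957 and 1.16 CPM in KO HFD against 1.27, 1.27 and 1.17 CPM in WT HFD, and 1.04, 0.606 and 0.634 CPM in KO chow against 1.35, 1.51 and 1.5 CPM in WT chow. No KO library reached a WT library of its diet, which among all tested genes held in the lower direction for 2.35%. The log2 fold change averaged over diets was -0.63 (SE 0.17, 95% interval -0.98 to -0.27) and did not pass (adjusted p = 0.07). On chow it was -0.92 (SE 0.24, adjusted p = 0.17) and on HFD -0.33 (SE 0.24, adjusted p = 0.58). KO chow 1 had the most Cd8b1 of the KO chow libraries. Without it the chow value was -1.22 and passed (adjusted p = 0.019), as did the averaged value (-0.78, adjusted p = 0.013). The averaged value also passed, at -0.63, by DESeq2 (adjusted p = 0.036). In 21 of 22 alternative settings the chow value did not pass (adjusted p from 0.075 to 0.89). The averaged value did not pass in 18 of 21 (adjusted p from 0.062 to 0.3). The Cd8a to Cd8b1 ratio in CPM was 9.41 ± 0.848 in KO HFD, 8.72 ± 2.41 in WT HFD, 13.2 ± 1.95 in KO chow and 8.35 ± 1.09 in WT chow (SD, n = 3 each).

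Trdc, the constant region of the δ receptor chain (chromosome 14, 54142851 to 54148868), marks γδ T cells. It measured 1.64, 2.08 and 2.97 CPM in KO HFD, 1.91, 2.38 and 2.62 CPM in WT HFD, 2.35, 1.92 and 2.32 CPM in KO chow and 2.96, 2.49 and 2.42 CPM in WT chow. The KO chow libraries were all below those of WT chow, by a margin within the spread of either HFD group. Averaged over diets its KO to WT difference was -0.15 (SE 0.15, 95% interval -0.48 to 0.17, adjusted p = 0.61), and its HFD to chow difference averaged over genotypes was -0.09 (SE 0.15, interval -0.41 to 0.24, adjusted p = 0.71).

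Itgae, the integrin αE chain (CD103) that pairs with β7 (chromosome 11, 73090583 to 73147446), measured 12.2, 16.8 and 17.3 CPM in KO HFD and 12.7, 21.1 and 18.3 CPM in WT HFD. It measured 15.5, 12.4 and 13.7 CPM in KO chow and 19.1, 18 and 19.1 CPM in WT chow. On chow the genotypes did not overlap and on HFD they did, and the KO to WT log2 fold change was -0.44 on chow (SE 0.17, adjusted p = 0.31) and -0.17 on HFD (SE 0.17, adjusted p = 0.72). Dendritic cells also express Itgae. Haspin lies within Itgae on the opposite strand, with 214 to 392 counts against 440 to 1011 for Itgae, and the strand setting of the counting is not given in the sources used here.

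Cd160, a receptor of the immunoglobulin family on cytotoxic lymphocytes that binds the TNF receptor HVEM (chromosome 3, 96798763 to 96829351), measured 3.39, 4.47 and 3.36 CPM in KO HFD and 3.08, 3.75 and 4.09 CPM in WT HFD. It measured 5.14, 2.98 and 3.96 CPM in KO chow and 4.81, 4.23 and 5.74 CPM in WT chow. In WT the diets did not overlap, yet the difference did not pass (-0.44, SE 0.20, adjusted p = 0.16), and in KO they overlapped (-0.10, SE 0.20, adjusted p = 0.8). Its start overlaps that of Pdzk1, an epithelial gene on the opposite strand with 5029 to 15287 counts, so reads there cannot be told apart without the strand setting. Tnfrsf14, which encodes HVEM, fell on HFD averaged over genotypes (log2 fold change -0.41, adjusted p = 0.00075).

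Gzma encodes granzyme A, a tryptase, and lies on chromosome 13 at 113093825 to 113100981. It measured 15.9, 24.8 and 23.4 CPM in KO HFD and 19.5, 37.8 and 27.3 CPM in WT HFD. It measured 69.8, 34.4 and 48.8 CPM in KO chow and 67.9, 65.9 and 75.5 CPM in WT chow. Each HFD library was below each chow library of its genotype, and KO chow 2, the lowest chow library, was below WT HFD 2. The log2 fold change between HFD and chow was -1.26 in KO (SE 0.30, adjusted p = 0.037), -1.31 in WT (SE 0.30, adjusted p = 0.023) and -1.28 averaged over genotypes (SE 0.21, 95% interval -1.77 to -0.80, adjusted p = 0.0028), a level 2.43 times lower. All 12 fits that left out a library kept the averaged call (-1.43 to -1.15, adjusted p up to 0.0099). Within KO 9 of the 12 lost it, those without WT chow 1, 2 or 3, KO chow 1 or 3, WT HFD 3 or KO HFD 1, 2 or 3, with adjusted p from 0.056 to 0.12. Within WT 5 of the 12 lost it, those without WT chow 1, 2 or 3 or WT HFD 1 or 3, with adjusted p from 0.051 to 0.081.

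Gzmb encodes granzyme B, an aspartate-cleaving protease that activates caspases, and lies on chromosome 14 at 56258838 to 56262260. It measured 5.45, 7.20 and 9.42 CPM in KO HFD and 6.41, 13.9 and 8.45 CPM in WT HFD. It measured 41.6, 19.7 and 29.0 CPM in KO chow and 35.4, 30.6 and 38.4 CPM in WT chow. All 6 HFD libraries lay below all 6 chow libraries. The log2 fold change between HFD and chow was -2.04 in KO (SE 0.35, adjusted p = 0.011), -1.86 in WT (SE 0.34, adjusted p = 0.0096) and -1.95 averaged over genotypes (SE 0.24, 95% interval -2.50 to -1.40, adjusted p = 0.00069), a level 3.86 times lower. It was called in all 12 fits that left out a library, in KO (adjusted p up to 0.046), in WT (up to 0.044) and averaged (up to 0.003). Of all tested genes 0.256% had an averaged diet difference as low as that of Gzmb or lower, and 0.773% as low as that of Gzma.

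Between genotypes the granzymes overlapped on both diets. The KO to WT log2 fold change averaged over diets was -0.43 for Gzma (SE 0.21, 95% interval -0.91 to 0.05, adjusted p = 0.31) and -0.30 for Gzmb (SE 0.24, interval -0.84 to 0.24, adjusted p = 0.53). The diet difference did not pass a test of difference between genotypes, with an interaction of 0.05 for Gzma (SE 0.42, adjusted p = 1.0) and -0.18 for Gzmb (SE 0.48, adjusted p = 0.99). Gzmb was lowered more than Gzma, and the Gzma to Gzmb ratio in CPM was 2.91, 3.44 and 2.48 in KO HFD, 3.04, 2.72 and 3.23 in WT HFD, 1.68, 1.74 and 1.68 in KO chow and 1.92, 2.15 and 1.96 in WT chow. The lowest ratio of an HFD library, 2.48, was above the highest of a chow library, 2.15. Without WT chow 1 and KO chow 3 together, both granzymes still passed averaged over genotypes (Gzmb -1.97, adjusted p = 0.0088, and Gzma -1.32, adjusted p = 0.021), and neither passed within a genotype (adjusted p from 0.066 to 0.15).

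**Figure D2:**
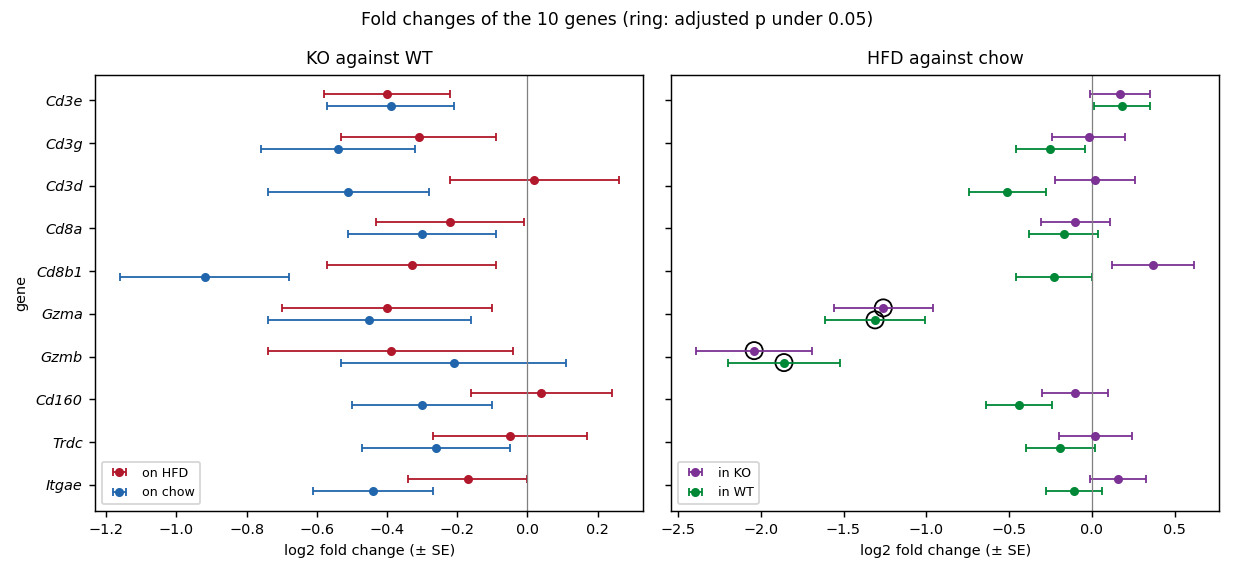
Log2 fold changes (x axis) of the 10 genes (y axis), with bars for the SE of the fit, for the comparisons between genotypes and between diets. The points of Gzma and Gzmb for HFD against chow lie between -2.04 and -1.26, away from the other 8 genes, and those for KO against WT on chow lie below 0 for all 10.

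Between diets, the HFD libraries lay below the chow libraries without overlap for 2 of 10 genes in KO (Gzma and Gzmb), against 13.1% of all genes. In WT this held for 5 of 10 (Cd3d, Cd8b1, Cd160, Gzma and Gzmb), against 18.6%, and in both genotypes for the 2 granzymes, against 8.0%.

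The other 8 genes had log2 fold changes between HFD and chow, averaged over genotypes, from -0.27 for Cd160 to 0.18 for Cd3e. A member's level was next set against Cd3e within the same library, which asks whether it moved apart from the T cell receptor while library scaling largely cancels. The Gzma to Cd3e ratio in CPM averaged 7.39 ± 1.16 in KO HFD, 7.29 ± 1.76 in WT HFD, 19.5 ± 4.90 in KO chow and 20.9 ± 1.25 in WT chow. The Gzmb to Cd3e ratio averaged 2.59 ± 0.797 in KO HFD, 2.47 ± 0.815 in WT HFD, 11.5 ± 3.09 in KO chow and 10.4 ± 0.179 in WT chow (SD, n = 3 each). Both ratios were lower in every HFD library than in every chow library.

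In an exact two-sided permutation test over 400 arrangements, with diet permuted within genotype, the HFD to chow difference in the log2 ratio to Cd3e was -1.42 for Gzma and -2.05 for Gzmb. Both had an exact permutation p = 0.005, the smallest these arrangements can give, and adjusted over the 17601 other tested genes, set against Cd3e in the same way, it was 0.057. At that smallest p, 8.38% of all genes were lower against Cd3e on HFD. The same difference was -0.38 for Cd160 (exact p = 0.015, adjusted 0.095) and -0.28 for Cd8a (exact p = 0.025, adjusted 0.12). Between genotypes, permuted within diet, it was 0.22 for Cd160 (exact p = 0.035, adjusted 0.069), and the largest of the other 8 genes' genotype differences was 0.21, for Trdc (exact p = 0.14). An adjusted value this near its exact p arises where a large part of all genes has a p as small, so the Cd160 value does not stand out. By edgeR, averaged over diets, Cd3e was itself lower in KO (-0.40, adjusted p = 0.1), and Cd160 differed by -0.13 (adjusted p = 0.66). In all, 18 such ratios were compared.

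**Figure D3:**
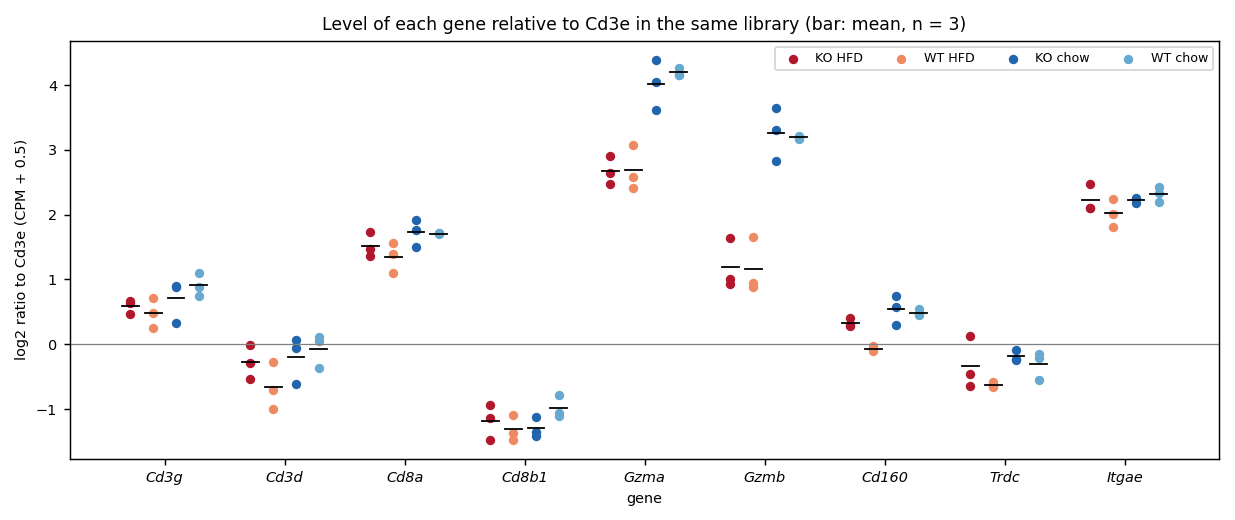
Log2 ratio of each gene's CPM to that of Cd3e in the same library, after adding 0.5 to both (y axis), for the 9 other genes (x axis), by group from left to right (KO HFD, WT HFD, KO chow, WT chow). Points are libraries and bars are group means. For Gzma and Gzmb the HFD groups lie well below the chow groups, and KO and WT overlap on each diet.

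None of the genotype differences passed, but on chow all pointed down. All 10 genes had log2 fold changes below 0 between KO and WT chow, with a median of -0.41 against 0.00 over all tested genes, of which 49.3% were below 0. For 6 of 10 (Cd3e, Cd3g, Cd3d, Cd8b1, Trdc and Itgae) the libraries did not overlap, against 12.1% of all genes in that direction. On HFD 8 of 10 were below 0, as were 50.1% of all genes, the median was -0.26, and 1 of 10 (Cd8b1) did not overlap, against 8.7%. Markers of some other cells were below 0 in KO chow too, namely 8 of 9 CD4 T cell genes (median -0.56), 7 of 8 B cell genes (-0.46), 8 of 8 plasma cell genes (-0.28) and 9 of 10 smooth muscle genes (-0.28), with 0 of them called. Fewer were below 0 among myeloid genes, 7 of 11 (-0.16), enterocyte and epithelial genes, 6 of 10 (-0.06), and proximal small intestine genes, 0 of 4 (0.89). The 10 genes come from overlapping sets of cells and some moved together over libraries, so they do not count as independent observations. Over the 12 libraries the Pearson correlation in log2 level was 0.90 for Cd8a with Cd3g, 0.90 for Itgae with Cd8a and 0.97 for Gzma with Gzmb, but -0.07 for Gzmb with Cd3e. Library size scaling, depth and the groups themselves are shared by these points.

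Other genes of the T cell receptor were tested as a list of 20 with its proximal signalling. On HFD against chow, averaged over genotypes, 2 rose, among them Ptprc, the CD45 phosphatase of all leukocytes (0.39, adjusted p = 0.041). Over all tested genes 12.9% were called higher, so this count does not stand above the background. The list's median was 0.12, against 0.01 over all genes. Between genotypes averaged over diets 1 fell, Zap70, the kinase that docks on CD3 (-0.50, adjusted p = 0.045), at 3.07 ± 0.302 CPM in KO HFD, 3.67 ± 0.491 CPM in WT HFD, 3.09 ± 0.498 CPM in KO chow and 5.15 ± 0.415 CPM in WT chow (SD, n = 3 each). On chow all 20 were below 0 in KO with a median of -0.52, and 0 passed. Of 8 tested genes of the γδ receptor and its programme, 0 passed in any of the 7 contrasts. Their summed level was 111 to 142 CPM in KO HFD, 113 to 139 CPM in WT HFD, 113 to 132 CPM in KO chow and 120 to 127 CPM in WT chow.

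In the cytotoxic granule and effector list, which leaves out the 2 granzymes of the set, the called changes were decreases. On HFD against chow averaged over genotypes, 26.2% of all tested genes were called and 13.3% called lower. Of 18 tested genes of this list 6 fell there and 0 rose, with a median of -0.35. Among them, Ccl4 and Ccl5, chemokines of activated cytotoxic cells, fell by 1.11 (adjusted p = 0.0027) and 0.52 (adjusted p = 0.022) on the log2 scale. Rab27a and Unc13d, which dock and prime cytotoxic granules and also act in other secretory cells, both fell by 0.36 (adjusted p = 0.0011 and 0.0055). Ccl5 measured 10.7 ± 1.57 CPM in KO HFD, 12.4 ± 3.39 CPM in WT HFD, 13.6 ± 2.75 CPM in KO chow and 20.0 ± 2.86 CPM in WT chow (SD, n = 3 each). Rab27a measured 20.8 ± 1.12 CPM in KO HFD, 20.9 ± 2.47 CPM in WT HFD, 27.0 ± 1.81 CPM in KO chow and 26.7 ± 0.599 CPM in WT chow (SD, n = 3 each). In WT alone 4 of 18 fell (Ccl4, Unc13d, Rab27a and Ccl5), where 6.57% of all genes were called lower. In KO alone 1 of 18 fell (Rab27a), a share near the 4.76% of all genes called lower there. Prf1, the pore-forming perforin that granzymes work with, averaged 0.513 ± 0.145 CPM in KO HFD, 0.636 ± 0.223 CPM in WT HFD, 0.583 ± 0.177 CPM in KO chow and 1.11 ± 0.135 CPM in WT chow (SD, n = 3 each), with a diet difference of -0.50 that did not pass (SE 0.23, adjusted p = 0.12). Gzmc, another granzyme, was at 0 in all KO HFD libraries and at most 0.16 CPM elsewhere.

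Of 19 tested genes of homing and tissue residence, 5 rose and 0 fell on HFD averaged over genotypes, with a median of 0.07. Counted in either direction, that share of called genes is near the 26.2% of all tested genes called. Counted for rises alone, it is above the 12.9% of all tested genes called higher. No difference from these shares was tested. In KO alone 3 rose (Runx3, Itga1 and Itga4), against 3.44% of all genes called higher. In WT alone Itga1 rose and Il2rb, the β chain of the IL-2 and IL-15 receptors, fell (-0.44, adjusted p = 0.047). Itga1, the collagen-binding integrin chain CD49a, rose by 0.41 (adjusted p = 0.00031), at 25.1 ± 0.617 CPM in KO HFD, 24.0 ± 2.57 CPM in WT HFD, 19.3 ± 0.972 CPM in KO chow and 17.7 ± 0.319 CPM in WT chow (SD, n = 3 each). Runx3, a factor of CD8 T cell identity, rose by 0.62 (adjusted p = 0.0016), Itga4, an integrin chain for gut homing, by 0.54 (adjusted p = 0.0038) and Cxcr3, a chemokine receptor, by 0.65 (adjusted p = 0.023). Itga1 is also expressed by stromal and muscle cells and Itga4 by most leukocytes. The integrin chain Itgb7, partner of Itgae, and the gut homing receptor Ccr9 did not pass.

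On the epithelial side, 19 genes that bind or feed these lymphocytes were tested, and on HFD averaged over genotypes 3 rose and 5 fell, against 12.9% of all tested genes called higher and 13.3% called lower. Beside Tnfrsf14, H2-D1, a class I molecule (-0.42, adjusted p = 0.0029), and Raet1e, a ligand of the activating receptor NKG2D (-0.86, adjusted p = 0.0063), fell. Icosl, a ligand of the costimulator ICOS, rose (0.52, adjusted p = 0.0013). Il15ra, which presents the survival cytokine IL-15, fell in WT (adjusted p = 0.017), at 6.08 ± 1.06 CPM in WT HFD and 9.39 ± 0.281 CPM in WT chow (SD, n = 3 each). In all, 1 of the 19 rose and 4 fell in WT, where 13.4% of all tested genes were called and 6.57% called lower. In KO none of the 19 passed, where 8.2% of all tested genes were called, with Il15ra at 7.77 ± 1.03 CPM in KO HFD and 9.09 ± 1.78 CPM in KO chow. For the genotype by diet interaction 0 of the 19 passed, so a diet difference that depends on genotype was not shown.

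Other cells that can hold granzymes were measured beside them. The 10 NK and innate lymphoid genes summed to 17.0 to 22.2 CPM in KO HFD, 21.3 to 21.7 CPM in WT HFD, 18.8 to 19.8 CPM in KO chow and 18.7 to 21.5 CPM in WT chow, and 1 of them was at 0 in each group. Most of that sum was Kit, which mast cells and interstitial cells of the gut also express. The other 9 genes summed to 3.79 to 7.00 CPM in KO HFD, 5.11 to 7.04 CPM in WT HFD, 3.02 to 3.70 CPM in KO chow and 4.39 to 5.29 CPM in WT chow. The NK cell gene Ncr1 did not exceed 0.267 CPM. Mucosal mast cell genes (8) summed to 3.67 to 8.14 CPM in KO HFD, 1.91 to 2.56 CPM in WT HFD, 1.93 to 2.51 CPM in KO chow and 2.49 to 4.81 CPM in WT chow, with 1 to 3 of them at 0 in a group. The 12 CD4 T cell genes summed to 12.7 to 25.0 CPM in KO HFD, 13.8 to 21.9 CPM in WT HFD, 11.1 to 14.6 CPM in KO chow and 17.6 to 18.7 CPM in WT chow. The part of these cells in the granzyme levels was not tested.

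Of 4 tested genes of the proximal small intestine, 2 (Lct and Fabp1) rose on HFD averaged over genotypes, where 12.9% of all tested genes were called higher. The same 2 rose in WT, 0 of 4 passed in KO and 0 of 4 passed the test of the interaction. The granzymes were set against these 4 genes. A proximal score, the mean centred log2 level of 4 tested genes (Lct and Fabp1 among them), was -0.209, 1.068 and 0.747 in KO HFD, 1.871, 1.754 and 0.379 in WT HFD, -1.585, 0.285 and 0.056 in KO chow and -1.475, -1.437 and -1.452 in WT chow. In WT the diets did not overlap in this score, so diet and score cannot be told apart there. Gata4, a transcription factor of proximal enterocytes and itself in the score, measured 1.75, 12.9 and 4.86 CPM in KO HFD. It measured 6.93, 9.95 and 1.72 CPM in WT HFD, 2.72, 7.56 and 5.37 CPM in KO chow and 2.11 to 2.88 CPM in WT chow. Fgf15, a hormone gene of the distal ileum, rose on HFD in WT (2.79, adjusted p = 0.024). It was the 1 called of 5 distal ileum genes, whose median was 0.04, and 13.4% of all tested genes were called there. Whether libraries came from different stretches of intestine was not tested. Over the 12 libraries the proximal score had a Pearson correlation of -0.76 with Gzmb, -0.75 with Gzma, -0.68 with Cd160 and 0.18 with Cd3e. These values describe points that share diet and genotype. With the score as a covariate the averaged diet difference was -1.65 for Gzmb (SE 0.49, adjusted p = 0.2) and -1.01 for Gzma (SE 0.43, adjusted p = 0.37), and neither passed. Fabp1 is a PPARA target, and with a score that leaves it out, a setting chosen after seeing the data, the differences were -1.70 for Gzmb (SE 0.36, adjusted p = 0.04) and -1.06 for Gzma (SE 0.32, adjusted p = 0.11). In KO the diets met in the middle of the score. KO chow 2 and 3, at 0.285 and 0.056, had 19.7 and 29.0 CPM of Gzmb, and KO HFD 1, at -0.209, had 5.45 CPM. KO chow 1, at -1.585, had 41.6 CPM, so within KO chow Gzmb was lower where the score was higher. KO HFD 2 and 3, at 1.068 and 0.747, had 7.20 and 9.42 CPM and scored above every KO chow library. WT HFD 3, at 0.379, had 8.45 CPM. Diet at a like score was not tested in these few libraries.

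**Figure D4:**
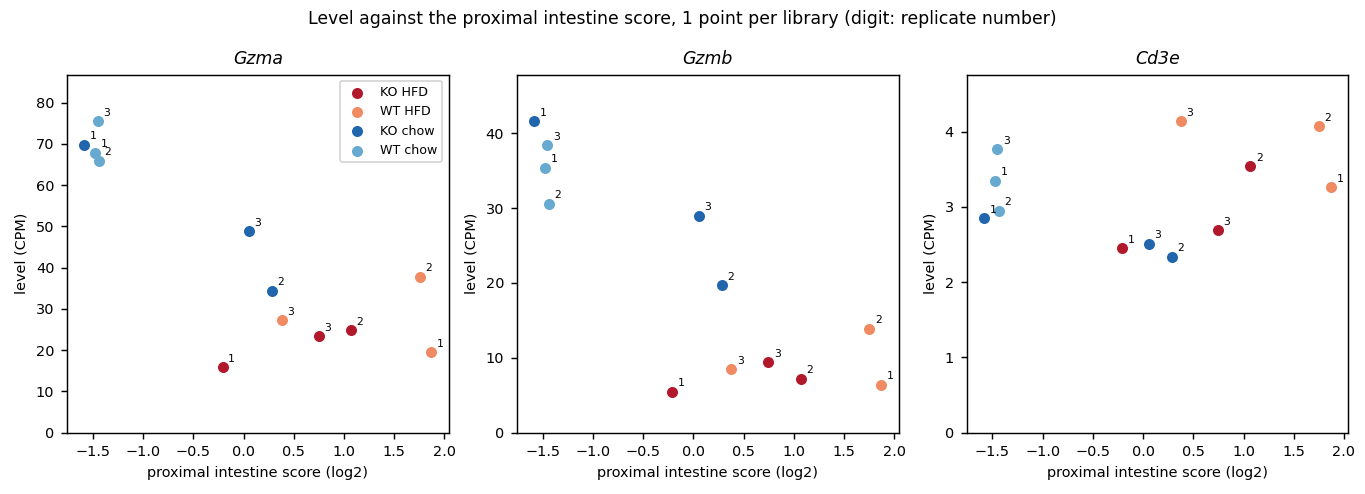
Level of Gzma, Gzmb and Cd3e (y axis, CPM, from 0) against the proximal score of each library (x axis, mean centred log2 units), coloured by group, with the replicate number beside each point. Gzma and Gzmb are highest in the 4 chow libraries of lowest score, and near a score of 0 the KO chow points lie above KO HFD 1 and WT HFD 3.

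Muscle and epithelium also differed between groups. The 10 smooth muscle genes summed to 99.8 to 130 CPM in KO HFD, 38.7 to 77.6 CPM in WT HFD, 53.8 to 70.5 CPM in KO chow and 70.8 to 74.0 CPM in WT chow. The 10 epithelial genes summed to 13702 to 16232 CPM in KO HFD, 15126 to 16955 CPM in WT HFD, 15678 to 19324 CPM in KO chow and 18912 to 19299 CPM in WT chow. With a muscle score as a covariate the averaged diet difference stayed at -1.94 for Gzmb (adjusted p = 0.0012) and -1.27 for Gzma (adjusted p = 0.0044), and in WT and in KO alone neither granzyme passed (adjusted p from 0.053 to 0.18). The part of the epithelial share in these levels was not tested.

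The genes outside the set that followed its mean most closely over the 12 libraries were sought among 13637 expressed genes. The closest was Ccl5 (Pearson r = 0.974), followed by March2 (0.968), Ehd1 (0.966), Gapdh (0.966) and Dcaf12 (0.957), and Chmp4b (0.953) and H2-D1 (0.952) were also among the 8 closest. The mean of the set weighs its genes equally on the log2 scale, and the granzymes varied most among them.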

How the data were processed

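Values were deposited as 1 table of expected counts, with a row per gene and a column per library, not scaled between libraries by the authors (12.3% to 13.2% of genes per library were not whole). Per the labels' protocols, the kit was for total RNA and kept strand. Trimmomatic, STAR, Picard, RSEM and mm10 are named in the submitters' processing notes, without versions. Neither annotation release nor strand setting is given in the sources used here. Of 47643 gene IDs, 47224 matched a symbol.

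Expected counts were rounded and tested with edgeR 4.0.16 in R 4.3.3 (TMM factors, filterByExpr, robust quasi-likelihood F test) in 1 fit of 4 group means over all 12 libraries. In each of 7 contrasts, Benjamini-Hochberg adjustment ran over 17602 genes, and a gene was called at an adjusted p under 0.05. SEs were derived from the F statistic, and 95% intervals from t quantiles at the fit's degrees of freedom. CPM used TMM-scaled library sizes, and scores and ratios used log2 of CPM plus 0.5. Count-based precision covers counting error only. The members, the 16 other gene lists and the rules were chosen with earlier results of these data known. The text names all 10 members, up to 4 called genes per list and contrast by smallest p, the first 2 markers of other cell types and the 8 genes most like the members' mean, except that some genes under these rules are not reported here. Alternatives were DESeq2 1.42.0 (size factors, Wald test), other filters, a replicate block, only the groups compared, each library left out, 2 chow libraries left out together, muscle and proximal scores as covariates, and for ratios another pseudocount (0.1) and another denominator. Same-numbered libraries deviated together with r from -0.111 to 0.143, so the numbers were not taken as pairs. The fit was checked on simulated counts with known fold changes. Tables and figures were made with Python 3.11.15, pandas 2.3.3 and matplotlib 3.10.9, and promoters were matched by symbol in RefSeq tables of GRCm38.p6.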

Additional observations from a re-analysis of the deposited data

How the results depend on the processing

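Over 1510 gene values under an alternative setting, 1468 kept their side of the threshold, 36 lost it (all Gzma or Gzmb), 6 gained it (4 of them Cd8b1) and 0 called values reversed. The number of the 10 genes called was 2 for HFD against chow in WT, and it was 1 with the replicate block and 0 with the muscle score, with either proximal score and without WT chow 1 and KO chow 3 together. In KO it was 2, against 1 without the filter, with the replicate block, with only the groups compared and with the proximal score without Fabp1 (chosen after seeing the data), and 0 with the muscle score, with the full proximal score and without WT chow 1 and KO chow 3. Averaged over genotypes it was 2, against 0 with the full proximal score and 1 without Fabp1 in it. Averaged over diets, KO against WT had 0 called, against 1 (Cd8b1) with the muscle score and by DESeq2. Leaving out 1 library gave 1 to 2 in WT, 1 to 2 in KO, 2 to 4 averaged over genotypes (4 without KO chow 2, with Cd160 and Cd3d added), 0 to 1 for KO against WT on chow and 0 to 1 averaged over diets (1 without KO chow 1, Cd8b1), and 0 on HFD and for the interaction. Of the 18 ratios to Cd3e, 2 passed after adjustment over the 18, against 0 with the replicate block and 0 without WT chow 1 and KO chow 3, both with fewer arrangements, and 2 to 6 with 1 library left out (6 without KO chow 2 and 4 without KO HFD 3). The replicate numbers are not shown to pair libraries, and why fewer genes were called with the block was not tested. Where no construction is named, the cause was not tested.

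Over all genes, counts called moved as well. For KO against WT on chow they were 22, against 188 by DESeq2, 54 with only the groups compared, 49 without the filter, 14 with the block, 4 and 8 with the proximal scores and 1 without WT chow 1 and KO chow 3. On HFD they were 51, against 288 by DESeq2, 1582 with the muscle score, 94 without the filter, 8 with the full proximal score, 6 with only the groups compared and 3 without both chow libraries. For HFD against chow in WT they were 2353, against 918 with the muscle score, 0 and 75 with the proximal scores and 458 without both chow libraries. In KO they were 1444, against 2709, 445 and 839, and 185 in the same settings, and 335 with only the groups compared. Averaged over diets they were 262, against 981 by DESeq2, 2797 with the muscle score, 132 without Fabp1 in the proximal score and 3 without both chow libraries. Averaged over genotypes they were 4613, against 128 and 855 with the proximal scores and 2371 without both chow libraries. For the interaction they were 1, against 57 by DESeq2, 64 with the muscle score and 0 to 4 in the other settings that kept all libraries. Leaving out 1 library gave 1 to 517, 5 to 173, 895 to 3089, 451 to 2551, 11 to 1463, 3443 to 5354 and 0 to 19 in the same order. Counts of 21 to 79 per library limit Cd8b1, and counts of 59 to 130 limit Trdc.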

Other observations

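Some other immune genes differed between diets. Mcpt1 and Mcpt2, proteases of mucosal mast cells, were the 2 tested genes of their list and rose on HFD against chow in KO (adjusted p = 0.01 and 0.049), where 3.44% of all tested genes were called higher. The smooth muscle genes Synm, Myh11 and Myl9 rose there too (adjusted p = 0.0035, 0.02 and 0.034), and KO HFD 1 had the highest muscle score (0.779) and the highest Mcpt1 (5.78 CPM) and Mcpt2 (1.97 CPM). Their part in the mast cell genes was not tested. Mcpt1 measured 4.11 ± 1.58 CPM in KO HFD, 1.61 ± 0.246 CPM in WT HFD, 1.38 ± 0.396 CPM in KO chow and 2.26 ± 0.783 CPM in WT chow (SD, n = 3 each). In WT neither passed, and neither passed the test of the interaction. Klre1, an NK cell receptor, and Il7r, the receptor of a lymphocyte survival cytokine, rose on HFD averaged over genotypes (adjusted p = 0.0014 and 0.0028), 2 of the 7 tested genes of their list, while 0 of the 7 fell. Of all tested genes 12.9% were called higher in that comparison.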
